A study of Homo sapiens with 16 samples.

Results

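The genes described here encode the nuclear part of the mitochondrial respiratory chain, read through trimethylation of histone H3 at lysine 4 (H3K4me3) over their start sites. They were taken from the GENCODE release 44 annotation by symbol: every protein-coding gene on a nuclear chromosome whose symbol starts with NDUF, UQCR, ATP5, COX4, COX5, COX6, COX7 or COX8, together with SDHA, SDHB, SDHC, SDHD and CYC1. This rule gave 99 of the 20033 protein-coding genes and used no measured value. By role they comprised 7 core subunits, 30 accessory subunits and 8 assembly factors of complex I, 4 subunits of complex II, 9 of complex III, 12 of complex IV, 18 genes of ATP synthase, 2 readthrough genes, and 9 genes that are tissue isoforms or retrocopies of another member.

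The respiratory chain passes electrons from NADH, through complex I, and from succinate, through complex II, to ubiquinone, then through complex III and cytochrome c to oxygen at complex IV, and ATP synthase uses the proton gradient that results. A few of its subunits are encoded in the mitochondrial genome and all others in the nucleus, and the nuclear genes are expressed in nearly every cell. Several complex IV subunits also exist as isoforms known from heart and skeletal muscle, testis, or cells short of oxygen. H3K4me3 sits on the nucleosomes beside active start sites, whereas H3K27me3, the mark of Polycomb repression, covers silenced genes.

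The cells were MCF-10A, an established line of nontransformed human breast epithelial cells. They were exposed for 24 hours to 5 mM octanoic acid (OA), a medium-chain fatty acid that is oxidized in mitochondria, or to the vehicle, PBS. CUT&RUN, in which an antibody directs a nuclease to cut out the marked chromatin, was performed for H3K4me3 in 3 vehicle and 3 OA samples seeded as biological replicates, and for H3K27me3 in the same numbers. Untreated cells gave 2 H3K4me3 libraries and 2 libraries with a nonspecific IgG antibody, which are the assay's positive and negative controls.

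Peak lists hold no read totals, so depth was read from the lists themselves. The 6 H3K4me3 libraries of vehicle and OA cells held 16371 to 21208 peaks, and the coverage that the caller took as background, which grows with the number of reads, was lowest in vehicle 3 (0.45) and between 0.633 and 0.853 in the other 5. Vehicle 3 had the shortest peaks, and OA 1 the lowest enrichment over background. Among the epithelial marker genes, KRT5 had an H3K4me3 call in 6 of the 6 libraries (and in IgG 1), CDH1 and EPCAM in 5, KRT14 in 1 and TP63, at its canonical start site, in none. The blood marker PTPRC and the endothelial marker PECAM1 had no call.

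A start site was called when a peak lay within 500 bp of it. By this measure 90 of the 99 genes were called in each of the 3 vehicle libraries and in OA 1 and OA 3, and 91 in OA 2. The same 90 genes were called in all 6 libraries, against 51.5% of all protein-coding genes. They included every core and accessory subunit of complex I, every assembly factor, the 4 subunits of succinate dehydrogenase, the 9 of complex III, the 12 widely used subunits of complex IV and the 18 genes of ATP synthase. The 9 others were the tissue isoforms and retrocopies: COX4I2, COX6A2, COX6B2, COX7A1, COX7B2, COX8C, NDUFA4L2, UQCRHL and ATP5MGL. Of these, 8 had no call in any of the 6 libraries, against 35.8% of all protein-coding genes, and COX6B2 had a call in OA 2. The role groups were chosen with earlier results of these data known, so their match with the calls is only a description.

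The promoters of 4 isoform pairs are printed because the widely used gene and its tissue isoform perform the same task in complex IV. These are the complex IV pairs with both promoters in the table used. COX6A2 is the heart and skeletal muscle isoform of COX6A1, and COX6B2, COX7B2 and COX8C are the testis isoforms of COX6B1, COX7B and COX8A. The 250 bases before each start site were taken from RefSeq (GRCh38.p14, the same genome build as the peak lists), 5′ to 3′ on the strand of the gene. The intervals are chr12:120437863-120438112 (plus strand) for COX6A1, chr16:31428361-31428610 (minus) for COX6A2, chr19:35648073-35648322 (plus) for COX6B1, chr19:55354720-55354969 (minus) for COX6B2, chrX:77899218-77899467 (plus) for COX7B, chr4:46909246-46909495 (minus) for COX7B2, chr11:63974370-63974619 (plus) for COX8A and chr14:93346932-93347181 (plus) for COX8C. Capitals mark matches on either strand to the motif cores given below, which are those of NRF1, GABPA and other ETS factors, YY1, SP1 and KLF factors, CREB, ESRRA and the TATA box.
COX6A1: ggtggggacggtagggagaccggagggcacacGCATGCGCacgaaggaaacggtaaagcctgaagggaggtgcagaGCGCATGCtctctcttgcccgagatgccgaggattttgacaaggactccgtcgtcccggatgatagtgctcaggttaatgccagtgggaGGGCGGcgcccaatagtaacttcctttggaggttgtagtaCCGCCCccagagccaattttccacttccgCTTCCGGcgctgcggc
COX6A2: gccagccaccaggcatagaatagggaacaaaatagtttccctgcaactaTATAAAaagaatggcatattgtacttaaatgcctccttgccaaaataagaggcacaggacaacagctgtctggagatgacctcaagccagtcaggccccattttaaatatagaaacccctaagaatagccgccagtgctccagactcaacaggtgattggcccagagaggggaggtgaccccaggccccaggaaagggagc
COX6B1: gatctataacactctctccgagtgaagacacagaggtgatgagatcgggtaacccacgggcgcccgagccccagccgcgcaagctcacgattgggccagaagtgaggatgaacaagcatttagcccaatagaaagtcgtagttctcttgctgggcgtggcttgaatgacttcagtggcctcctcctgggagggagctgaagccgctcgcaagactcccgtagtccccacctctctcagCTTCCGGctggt
COX6B2: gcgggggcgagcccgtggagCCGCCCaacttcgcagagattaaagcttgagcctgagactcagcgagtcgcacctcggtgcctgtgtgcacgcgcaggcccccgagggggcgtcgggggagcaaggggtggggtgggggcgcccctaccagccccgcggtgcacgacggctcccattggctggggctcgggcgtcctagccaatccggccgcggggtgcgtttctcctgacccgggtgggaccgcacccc
COX7B: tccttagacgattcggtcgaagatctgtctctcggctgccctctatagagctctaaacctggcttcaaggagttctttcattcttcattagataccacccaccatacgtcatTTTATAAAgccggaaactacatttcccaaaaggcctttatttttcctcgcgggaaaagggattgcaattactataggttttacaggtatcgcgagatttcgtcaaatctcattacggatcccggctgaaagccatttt
COX7B2: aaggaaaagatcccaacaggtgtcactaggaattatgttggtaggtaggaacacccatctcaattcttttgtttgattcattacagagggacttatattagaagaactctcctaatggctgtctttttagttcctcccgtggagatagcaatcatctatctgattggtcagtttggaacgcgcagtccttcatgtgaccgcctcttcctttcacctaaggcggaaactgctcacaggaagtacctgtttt
COX8A: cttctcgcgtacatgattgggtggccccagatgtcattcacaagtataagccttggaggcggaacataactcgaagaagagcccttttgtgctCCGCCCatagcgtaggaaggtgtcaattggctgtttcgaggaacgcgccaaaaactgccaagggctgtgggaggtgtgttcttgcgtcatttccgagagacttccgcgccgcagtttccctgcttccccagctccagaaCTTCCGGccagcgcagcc
COX8C: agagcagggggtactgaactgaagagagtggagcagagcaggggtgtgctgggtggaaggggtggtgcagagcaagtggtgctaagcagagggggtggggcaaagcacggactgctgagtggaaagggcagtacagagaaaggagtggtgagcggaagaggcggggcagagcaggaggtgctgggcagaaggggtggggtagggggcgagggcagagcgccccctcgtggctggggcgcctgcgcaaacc

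Of the 4 called promoters, 3 held the ETS core close to the start site, from base -16 to -10 in COX6A1, from -12 to -6 in COX6B1 and from -18 to -12 in COX8A, counted backwards from -1 at the base before the start site. The called COX7B promoter did not hold it and had overlapping TATA box cores at -138 and -136. None of the 4 tissue isoform promoters held the ETS core. COX6A1 also held the NRF1 core at -218 and at -174. The uncalled COX6A2 promoter held a TATA box core at -201 and 1 CpG dinucleotide in its 250 bases, where COX6A1 had 19. COX7B2 had 5 CpGs and COX7B 13, and COX8C had 8 and COX8A 16. COX6B2 went the other way, with 26 CpGs against 14 in COX6B1. Of the 9 tissue isoforms and retrocopies, only COX6B2 had a peak within 500 bp in any of the 6 libraries. CpGs are given for 4 of these 9, and a relation to the calls was not tested.

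In each of the 9 pairs the widely used gene carried an H3K4me3 region in every library. Its length is given as the covered length, the number of bp in the merged start-site region that lie under peaks of 1 library. COX4I1, the main isoform of a subunit that helps regulate complex IV, was covered over 2106, 1974 and 1508 bp in vehicle and over 1642, 1818 and 1861 bp in OA, and COX4I2 over 0 bp in all 6. COX6A1 was covered over 1359, 1433 and 864 bp in vehicle and 1046, 1379 and 1351 bp in OA. COX8A varied most of the 3, with 1806, 1208 and 547 bp in vehicle and 966, 1077 and 1238 bp in OA. In all 3 genes vehicle 3 gave the lowest vehicle value and the ranges of the groups overlapped.

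**Figure D1:**
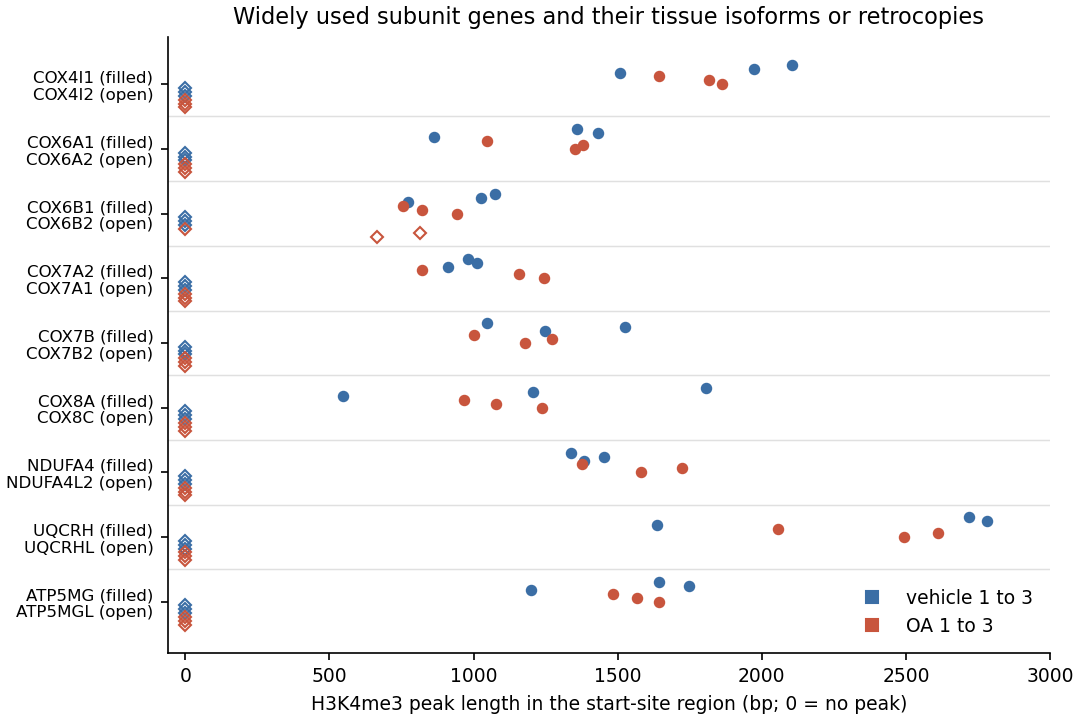
Covered H3K4me3 length in bp (x axis) for 9 pairs of a widely used gene (filled circles) and its tissue isoform or retrocopy (open diamonds), with 1 symbol for each of 3 vehicle (blue) and 3 OA (red) libraries. Every filled circle lies at 547 bp or more, and every open diamond lies at 0 except COX6B2 in OA 2 and OA 3, at 814 and 665 bp.

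COX7A2 and COX7B, the widely used partners of the muscle isoform COX7A1 and the testis isoform COX7B2, were covered over 821 to 1245 bp and 1001 to 1525 bp. NDUFA4, once assigned to complex I and now known as a subunit of complex IV, was covered over 1337, 1453 and 1384 bp in vehicle and 1375, 1724 and 1580 bp in OA. Its partner NDUFA4L2, a gene known to be induced by hypoxia, had no peak at the start site. The hinge protein gene UQCRH of complex III had the longest mean covered length of all members, with 2719, 2780 and 1637 bp in vehicle and 2055, 2611 and 2495 bp in OA. Its retrocopy UQCRHL had none, and neither did ATP5MGL, whose parent ATP5MG encodes a membrane subunit of ATP synthase and was covered over 1201 to 1746 bp. A retrocopy shares most of its sequence with its parent, so reads from either can be hard to place, and how such reads were treated is not given in the sources used here.

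Peaks farther from the start sites of the tissue isoforms and retrocopies were few. At COX6B2, OA 2 had a peak from 295 to 1108 bp downstream of the start site with a fold enrichment of 6.28, and OA 3 had a peak from 516 to 1180 bp downstream with a fold enrichment of 10.2. These peaks stood at percentiles 16.8 and 45.1 of their libraries, where the strongest peak by p-value has the highest percentile, and neither the vehicle libraries nor OA 1 had a peak there. NDUFA4L2 had a peak 2220 to 2289 bp upstream of its start site in vehicle 1, vehicle 2 and the 3 OA libraries, but not in vehicle 3. This peak was 309 and 1330 bp long in vehicle 1 and vehicle 2, and 1252, 1310 and 1284 bp long in OA. It stood at percentiles 16.7 and 34.7 in vehicle 1 and vehicle 2 and at 53.9, 77.3 and 68.9 in OA, and the difference was not tested. COX7A1 had a peak more than 2 kb downstream in vehicle 1 and OA 3, at 2169 and 2157 bp. The other 6 uncalled genes had no peak within 3 kb in any of the 6 libraries.

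The control libraries bracketed these calls. In untreated cells the start sites of 88 members were called in either H3K4me3 library, where 47.2% and 43.2% of all protein-coding genes were called, with NDUFB11 missing from both, NDUFS6 from untreated 1 and COX7B from untreated 2. IgG 1 had peaks at ATP5F1E and NDUFA6, with fold enrichments of 5.02 and 4.87, and IgG 2 had none at any member. Over all protein-coding genes IgG 1 had a call at 0.734% and IgG 2 at 0.01997%. In the vehicle and OA libraries NDUFA6, an accessory subunit of complex I, had fold enrichments of 10.3 to 15.8.

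The peaks were not centred on the start sites. The strongest point of the peak, its summit, lay downstream of the start site in 75 of the 90 called genes, at a median distance of 140 bp. The share over all called genes was not counted, so this is not shown to be particular to the members. Peaks reached a median of 394 bp upstream and 779 bp downstream. Nearly all called genes also had the start site itself under a peak in most libraries, with 86, 88 and 82 genes in vehicle, 72, 87 and 90 in OA, and 66 in all 6. Over all protein-coding genes the start site lay under a peak in 50.9%, 51.2% and 42.1% (vehicle) and in 39.02%, 49.4% and 57.9% (OA). OA 1 accounted for most of the gaps. ATP5F1A, the alpha subunit of the catalytic head of ATP synthase, was the extreme, since its peaks ended just short of the start site in every library except OA 3 while spanning 774 to 1566 bp. Its RefSeq start site was not the GENCODE one used for the peaks, and the gap was not measured from it.

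Many members shared their start-site region with a neighbour. An opposite-strand protein-coding start site lay within 1 kb of 30 of the 99 members, which is 30.3%, against 10.02% of all protein-coding genes. Among genes called in all 6 libraries the shares were 33.3% of members and 17.8% of all. In 29 of these the partner lay upstream, 38 to 677 bp away with a median of 156 bp, and a single merged region held both start sites in all 29. NDUFC1, a small accessory subunit of complex I, was the exception, with NAA15 starting 972 bp downstream of its start site. Peak lengths cannot be assigned to either gene of such a pair.

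**Figure D2:**
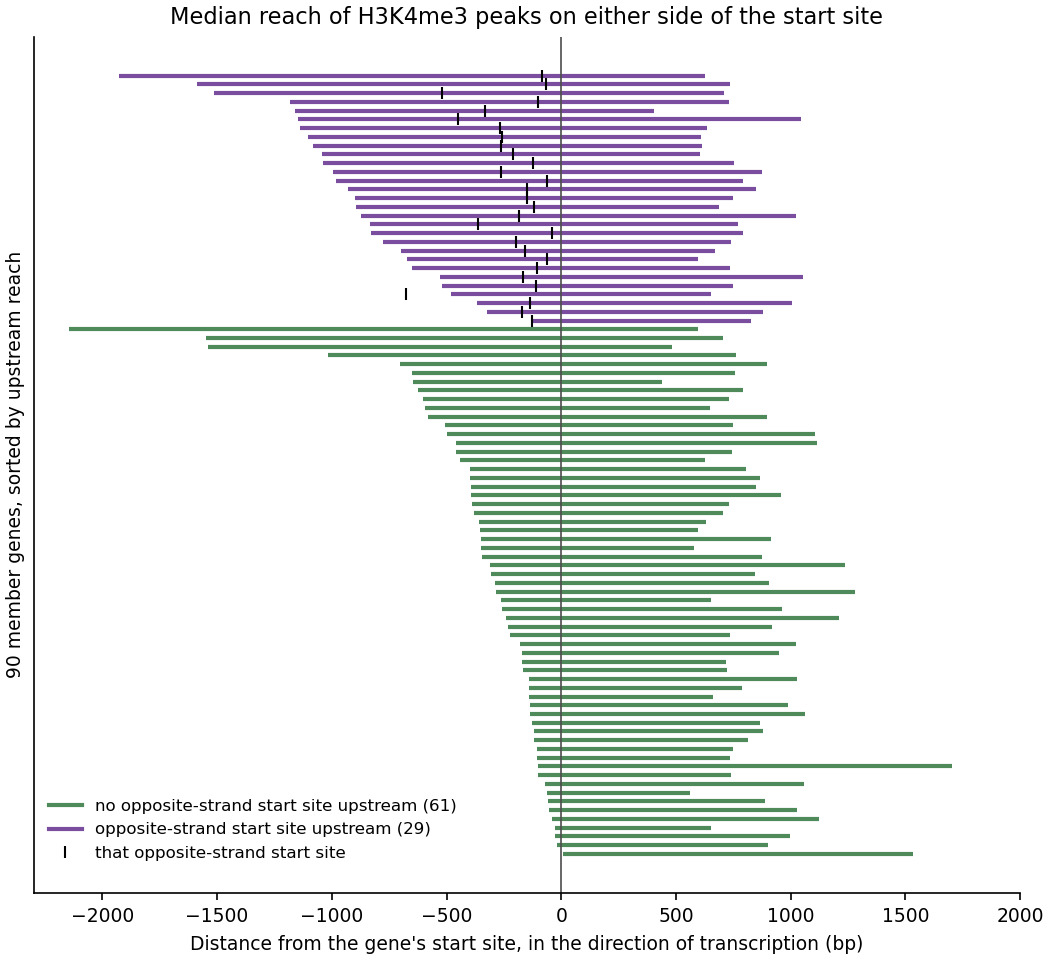
Median reach of H3K4me3 peaks over the 6 libraries, upstream (negative) and downstream of the start site in bp, with 1 line for each of the 90 called genes; ticks mark upstream start sites on the opposite strand. Genes with such a partner (purple, 29) reached a median of 900.5 bp upstream, and those without (green, 61) a median of 286 bp.

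The side that differed was the upstream one. Members with an upstream partner had peaks reaching a median of 900.5 bp upstream and 742 bp downstream, and members without it 286 bp and 844 bp. Their mean covered lengths over the 6 libraries had medians of 1574.5 and 1138.67 bp. UQCRH starts 82 bp from LRRC41, and its peaks reached 1927.5 bp upstream but 628 bp downstream. ATP5PF, coupling factor 6 of ATP synthase, starts 68 bp from GABPA, which encodes the DNA-binding subunit of an ETS factor known as a regulator of respiratory genes, and their shared region (chr21:25734125-25736557) was the second longest of the members at a mean of 2208 bp. SDHD, a membrane anchor of succinate dehydrogenase, is paired with TIMM8B, a gene of mitochondrial protein import, and NDUFB5 with MRPL47, a gene of the mitochondrial ribosome. NDUFS6 had the farthest upstream reach, 2145.5 bp, over a region that also holds the start site of MRPL36.

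Pairs of members overlapped only through readthrough genes. NDUFC2-KCTD14 starts in the region of NDUFC2, and ATP5MF-PTCD1 in that of ATP5MF, so the 90 called genes lay in 88 separate regions, and lengths and ranks below count each region once. Covered length varied more within the complexes than between their medians, which lay between 1083 bp for the complex I core and 1469 bp for complex III. In ATP synthase it ran from a mean of 872 bp at ATP5MF, a membrane subunit, to 2208 bp at ATP5PF, with a group median of 1332 bp. In the accessory subunits of complex I it ran from 598 bp at NDUFB10 to 1966 bp at NDUFS6, with a median of 1206 bp. NDUFB10 had the shortest mean covered length of all members, with 726, 673 and 241 bp in vehicle and 345, 896 and 706 bp in OA.

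Among the core subunits of complex I, which include the carriers of the redox centres, the means ran from 1024 bp at NDUFS7 to 2002.5 bp at NDUFS1, whose region includes the start site of EEF1B2. Among the assembly factors they ran from 1038 bp at NDUFAF1 to 1958 bp at NDUFAF3, where vehicle 3 had 631 bp and the other 5 libraries at least 1767 bp. In succinate dehydrogenase, complex II, the iron-sulfur subunit SDHB had 920.5 bp and the flavoprotein SDHA 1574.5 bp. In complex III the core protein UQCRC1 had 886 bp and UQCRH 2383 bp. In complex IV the range was narrower, from 899 bp at COX6B1 to 1818 bp at COX4I1. Of the ends of the complex III range, UQCRC1 has no opposite-strand start site within 1 kb and UQCRH has.

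Longer regions had lower enrichment. Across the 88 regions, the mean fold enrichment of the strongest peak and the mean covered length had a Spearman correlation of -0.727, and across all 9239 tested regions -0.533. Both are correlations across regions, which share the 6 libraries and are not independent replicates. NDUFB7, an accessory subunit of complex I, had a mean fold enrichment of 18.9 over a mean of 741 bp, and NDUFAF3 had 4.63 over 1958 bp. The percentile of the strongest peak was nearly unrelated to length, with a correlation of -0.0887.

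In rank the members stood high. The percentile gives the place of a region's strongest peak, by p-value, among all peaks of its own library, from 0 to 100. Over the 88 regions the vehicle libraries had median percentiles of 89.7, 87.3 and 79.4, and the OA libraries 82.6, 82.5 and 83.5. Over all tested regions the medians were 74.7, 69.8, 67.7, 69.6, 71.2 and 75.1 in the same order. Mean percentiles of at least 90 were reached by 20 of the 88 regions, or 22.7%, and by 10.1% of all tested regions. The highest were NDUFA2, NDUFV3 and NDUFB7 of complex I at 97.3, 97.2 and 97.0, followed by COX8A at 96.0. No test was made between members and other genes, because the set had been chosen with results of these data known.

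**Figure D3:**
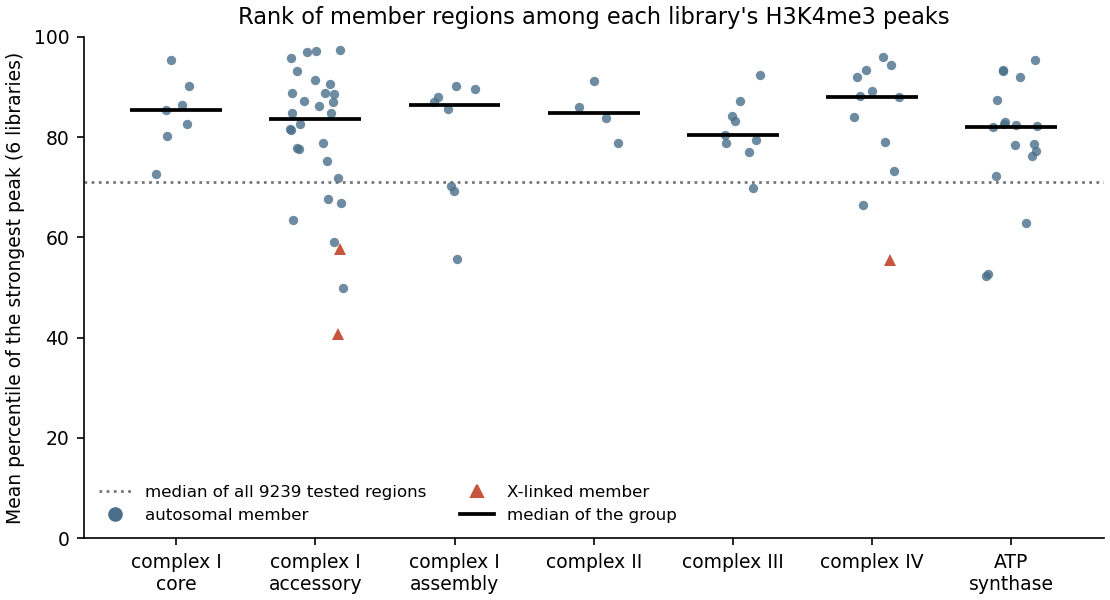
Mean percentile over the 6 libraries of the strongest H3K4me3 peak (y axis) in each of 88 member regions, by role; bars are group medians and triangles X-linked members. Group medians lie between 80.4 (complex III) and 88.0 (complex IV), above the median of all tested regions (dotted, 71.1), and the lowest member is X-linked NDUFB11 at 40.8.

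By role the group medians lay close together, at 85.4 for the core, 83.6 for the accessory and 86.4 for the assembly genes of complex I, 84.9 for complex II, 80.4 for complex III, 88.0 for complex IV and 82.1 for ATP synthase. Of the 88 regions, 8 had a mean percentile under 60, which is 9.09%, against 27.9% of all tested regions. The 8 were NDUFB11, NDUFA11, ATP5F1D, ATP5ME, COX7B, NDUFAF3, NDUFA1 and NDUFS6, and 3 of them are the only X-linked members. NDUFB11, a membrane-arm subunit of complex I, stood at 49.9, 49.4 and 43.3 in vehicle and at 15.004, 43.5 and 43.7 in OA. Tested regions of the X chromosome ranked low as a whole in these libraries, with a median of 47.2 over its 276 tested regions against 71.7 over the 8963 autosomal ones. NDUFB11 and COX7B were also among the 3 members missing from an untreated library.

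Whether OA changed H3K4me3 at these genes was asked first of the covered length. The median member region was covered over 1416, 1348.5 and 894.5 bp in vehicle and 1112, 1343 and 1387.5 bp in OA, which is a mean of 1220 ± 284 bp against 1281 ± 148 bp (SD of the library medians, n = 3 each). The medians of all tested regions moved alike, from 883 to 1359 bp in vehicle and from 1130 to 1432 bp in OA. The shortest of the 6 values came from vehicle 3 in 68 of the 88 member regions and in 75.2% of all, and from OA 1 in 19 and in 22.2%. Vehicle 3 and OA 1 thus had the lowest medians in the members and in all regions alike.

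**Figure D4:**
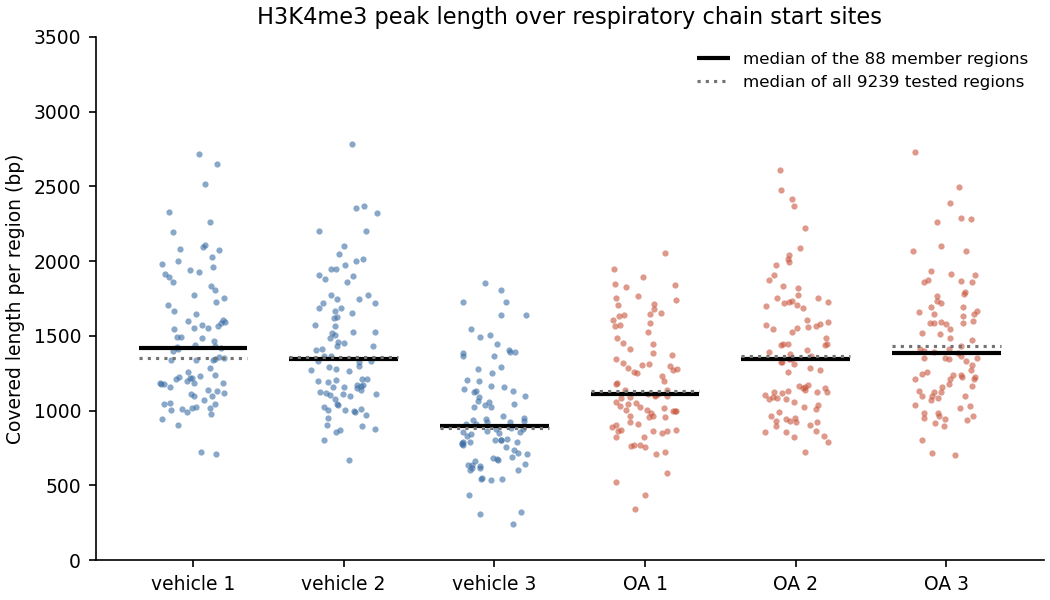
Covered H3K4me3 length in bp (y axis) of the 88 member regions in each vehicle (blue) and OA (red) library; black bars are member medians and dotted bars the medians of all 9239 tested regions. Member medians run from 894.5 bp in vehicle 3 to 1416 bp in vehicle 1 and stay near the dotted bars in all 6 libraries.

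For the test each library was therefore centred, by subtracting its median log2 length over the tested regions. No member region passed limma's test after Benjamini-Hochberg adjustment over all 9239 regions at 0.05, and of all regions 0% passed. At an unadjusted p below 0.05 there were 4 member regions and 773 regions in all. Without vehicle 3 there were 12 calls, with no member among them. The centred difference, OA minus vehicle, had a median of -0.0864 over the members on the log2 scale, and 25 of 88 were positive, against -0.0228 and 46.0% over all regions. Without centring the medians were 0.0623 over members, with 62 of 88 positive, and 0.126 over all regions, so the sign of the member median rests on the scaling. Without vehicle 3 the centred member median was -0.0911, and without OA 1 it was -0.106.

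The largest centred decreases were seen at UQCR10, NDUFB7, NDUFA7, COX6B1 and ATP5MK. UQCR10, a small subunit of complex III, was covered over 1958, 1719 and 1281 bp in vehicle and over 957, 1558 and 1732 bp in OA. The raw lengths overlapped, and the centred difference of -0.40 ± 0.16 (SE) had an adjusted p of 0.560 in limma. ATP5MK, a membrane subunit of ATP synthase, had the smallest adjusted p of any member for length, 0.510, with 1788 ± 430 bp in vehicle and 1582 ± 128 bp in OA (SD, n = 3 each) and a centred difference of -0.30 ± 0.10 (SE) by limma. NDUFA7, an accessory subunit of complex I that shares its region with the ribosomal protein gene RPS28, had 2002, 2204 and 1806 bp in vehicle and 1605, 1752 and 1783 bp in OA, and these did not overlap. Its centred difference was -0.37, and those of NDUFB7 and COX6B1 were -0.37 and -0.33.

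The largest centred increases were seen at ATP5MC2, COX5B, COX7A2L, CYC1 and NDUFAF3. COX7A2L, which helps join complexes III and IV into supercomplexes, was covered over 1543, 1617 and 1057 bp in vehicle and over 1527, 2090 and 2099 bp in OA, with a centred difference of 0.30 ± 0.11 (SE) and an adjusted p of 0.516 in limma. COX5B, a nuclear subunit of complex IV, had 1343, 1046 and 638 bp in vehicle and 1136, 1437 and 1513 bp in OA, and a centred difference of 0.34. Cytochrome c1, CYC1, had 1573, 1325 and 803 bp in vehicle and 1645, 1573 and 1632 bp in OA. ATP5MC2 encodes a copy of the membrane ring subunit of ATP synthase. Its centred difference of 0.36 included a value of 320 bp in vehicle 3, against 860 to 1209 bp in the other 5 libraries.

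Centred lengths did not overlap between the groups in 3 member regions that were longer in OA (COX5B, COX7A2L and UQCRQ) and in 10 that were shorter (ATP5MK, COX6B1, NDUFA7, NDUFAF5, NDUFB5, NDUFB6, NDUFV1, UQCR10, UQCR11 and UQCRB). Over all tested regions these shares were 7.62% longer and 9.3% shorter. The members' 3 and 10 of 88 regions lie on either side of those backgrounds. None of the 13 passed the adjusted test.

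Rank gave no call among the members either. By limma on the percentiles, 0.195% of all regions passed, which is 18 of 9239, with 14 higher and 4 lower in OA, and no member was among them, while 9 of the 88 member regions and 1106 of all 9239 had an unadjusted p below 0.05. The count rested on single libraries, since it was 227 without vehicle 1, 19 without vehicle 3 and 0 without vehicle 2 or any of the OA libraries, and no member was called in any of these fits. The member median of the difference was -0.431 percentile points, with 40 of 88 positive, against 0.512 points over all regions. Without vehicle 1 the member median was 0.607 points and without vehicle 3 it was -2.97 points.

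**Figure D5:**
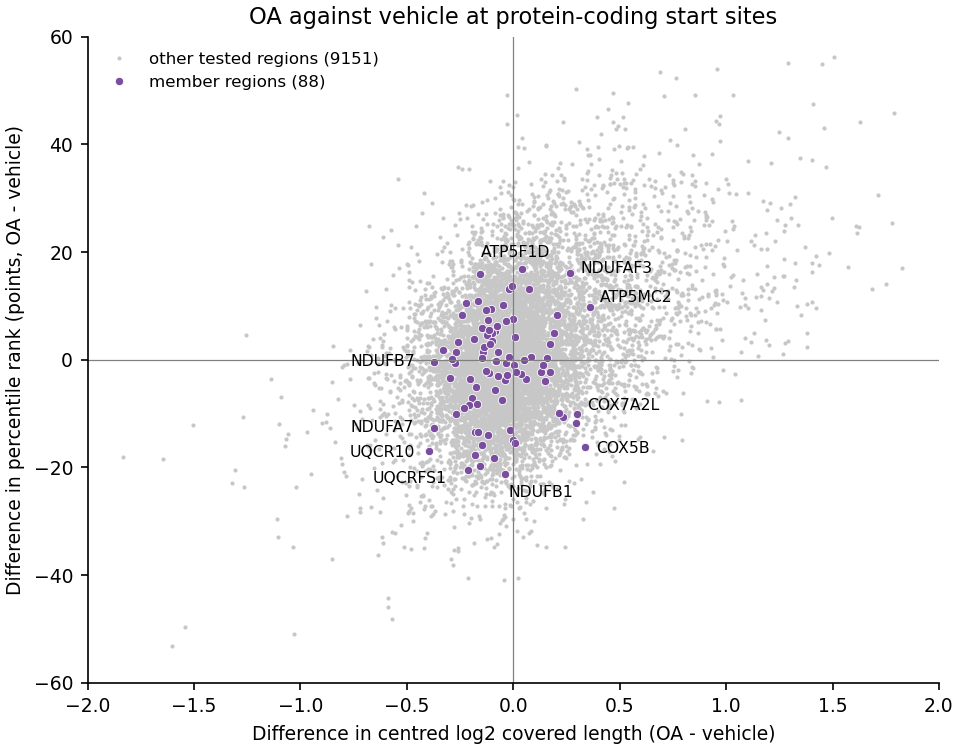
Difference between OA and vehicle in centred log2 covered length (x axis) and in percentile points (y axis) for the 88 member regions (purple) and the other tested regions (grey, with 2 regions beyond the axes). Members lie within the cloud, from -0.40 at UQCR10 to 0.36 at ATP5MC2 in length, and from -21.2 at NDUFB1 to 16.8 at ATP5F1D in rank.

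The 5 largest decreases in rank fell in complexes I and III: NDUFB1, UQCRFS1, NDUFV1, UQCRC1 and NDUFAF6. NDUFB1, an accessory subunit of complex I, stood at percentiles 88.4, 95.3 and 95.8 in vehicle and at 58.2, 74.4 and 83.3 in OA. The groups did not overlap, and the difference of -21.2 ± 7.76 points (SE) had an adjusted p of 0.289 in limma, the smallest of any member. The Rieske iron-sulfur protein of complex III, UQCRFS1, stood at 92.4, 90.2 and 86.4 in vehicle and at 84.0, 46.9 and 76.5 in OA, with OA 2 the lowest and a difference of -20.5 points. UQCRC1 stood at 94.5, 84.7 and 84.5 in vehicle and at 70.4, 74.4 and 64.3 in OA. NDUFV1, a core subunit that binds NADH, and NDUFAF6, an assembly factor, differed by -19.7 and -17.7 points with overlapping groups. Over the 9 regions of complex III the median difference was -11.8 points and 3 were positive, and none passed the test. The other roles had medians of 2.69 points in ATP synthase, -0.431 in the accessory, 0.519 in the assembly and -2.77 in the core genes of complex I, -1.33 in complex II and -0.0668 in complex IV. Over all tested regions 52.0% were positive, and the difference between complex III and the other roles was not tested.

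The 5 largest increases were those of ATP5F1D, NDUFAF3, NDUFA1, NDUFS5 and NDUFA6. ATP5F1D, the delta subunit of the central stalk of ATP synthase, stood at 56.5, 52.5 and 22.3 in vehicle and at 75.9, 38.2 and 67.7 in OA, which overlap. NDUFA1, a membrane-arm subunit of complex I encoded on the X chromosome, stood at 46.7, 55.1 and 47.3 in vehicle and at 57.2, 73.7 and 66.2 in OA, which do not. NDUFS5 and NDUFA6, accessory subunits of complex I, differed by 13.7 and 13.2 points, with adjusted p of 0.344 and 0.354 in limma. In all, percentiles did not overlap in 5 member regions that were higher in OA and in 11 that were lower, where 8.82% and 7.84% of all regions did so.

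Length and rank did not always move in the same direction. CYC1 and COX5B were longer in OA by 0.30 and 0.34 on the centred log2 scale but lower in rank by -11.8 and -16.1 points. UQCR10 was lower in both, since its percentiles were 88.7, 85.2 and 82.4 in vehicle and 69.8, 69.5 and 66.3 in OA. NDUFA7 was the other region apart between groups in both measures in the same direction. The number of reads behind these values differed between libraries. The pileup at the summit, solved from the fold enrichment and p-value of each peak, had a median over the members of 111.5, 181 and 49.5 reads in vehicle and 46, 124 and 115 reads in OA. This pileup depends on enrichment as well as on depth. OA 1 had the lowest, although the background coverage of its list, 0.853, was the highest of the 6.

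H3K27me3 was not called at these genes. None of the 99 members, the tissue isoforms included, had an H3K27me3 peak within 500 bp of its start site in any of the 6 libraries, where 8.48% of all protein-coding genes had one in at least 1. Within 3 kb there were 2, 3 and 0 members in vehicle and 5, 3 and 0 in OA, and 7 members in any library. Over all protein-coding genes the shares within 3 kb were 7.57%, 10.9% and 8.44% (vehicle) and 11.2%, 7.37% and 2.97% (OA). Among the 7 were the tissue isoforms COX8C, COX6B2 and COX7B2 and the called genes ATP5MC2, COX6C, COX7C and NDUFB11. At COX8C the peaks began 1352 to 2126 bp downstream in vehicle 2, OA 1 and OA 2, with fold enrichments of 2.92 to 3.73. The H3K27me3 lists were weak, since at a q-value of at most 1e-05 they held a call at 0 to 3 protein-coding genes per library, so an absent call there says little about the isoforms.

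Genes that act on the respiratory chain from outside were read in the same way. The list of assembly factors that the symbol rule does not take, with SURF1 and SCO1 of complex IV, BCS1L of complex III and CYCS, cytochrome c itself, held 45 genes, and all 45 were called in the 6 libraries. Over all protein-coding genes the share called in all 6 was 51.5%. The list of regulators, with NRF1, GABPA and the factors that maintain and transcribe mitochondrial DNA such as TFAM, held 15, of which 13 were called in all 6. The exceptions were PPARGC1A, the PGC-1alpha coactivator, called in 1 library, and SP1, called in 3, whose region was covered over 1008, 1273 and 0 bp in vehicle and 0, 183 and 933 bp in OA. No gene of either list passed limma's test for length, with smallest adjusted p of 0.388 and 0.569, or for rank, with 0.354 and 0.536.

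The promoter sequences of 78 of the 99 members were found in the RefSeq table. In their 300 bases, 250 before and 50 after the start site, 7 motif cores were counted on both strands, none of which contains another. The RefSeq start site was the GENCODE one used for the peaks in 69 of the 78 members and in 12699 of 15345 protein-coding genes. NRF1 (GCATGCGC), a factor known from many respiratory gene promoters, matched in 19.2% of members, against 4.25% of protein-coding genes, 6.34% of those called in all 6 libraries and 3.27% of all 27305 promoters in the table. The ETS core (CCGGAAG) matched in 26.9% of members, 14.4% of protein-coding genes, 22.7% of the called genes and 10.7% of all promoters. YY1 (AAGATGG) matched in 20.5%, 6.43%, 8.56% and 6.06% in the same order. The share of members with the SP1 and KLF core (GGGCGG) was 57.7%, under the 73.1% of called genes, with 59.2% of protein-coding genes and 44.6% of all promoters. CREB (TGACGTCA) matched in 6.41% of members, 2.64% of protein-coding genes, 3.73% of the called genes and 1.98% of all promoters, and ESRRA (TCAAGGTCA) in 1.28%, 0.241%, 0.132% and 0.359%. The TATA box (TATAAA) matched in 8.97% of members, which is above the 4.63% of called genes but below the 9.63% of protein-coding genes and 11.95% of all promoters.

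NRF1 cores lay at SDHB and SDHD of complex II, COX5B and COX6A1 of complex IV, ATP5ME, ATP5F1C, ATP5MC2 and ATP5PF of ATP synthase and 7 genes of complex I, and at none of the complex III genes with an entry in the table. The NRF1, ETS and YY1 cores all occurred in the promoters of SDHB, ATP5ME and ATP5PF. For ATP5PF the RefSeq start site was not the one used for the peaks. ESRRA matched at SDHD alone. The 4 members with a table entry that were not called in all 6 libraries were COX6A2, COX6B2, COX7B2 and COX8C. None of them held an NRF1, ETS or YY1 core. A match shows only that the letters are present in the window, and its absence says nothing of the factor.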

How the data were processed

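H3K4me3, H3K27me3 and IgG CUT&RUN was analysed in 16 libraries of MCF-10A cells. The authors called peaks with MACS2 2.2.7.1 for H3K4me3 and IgG, and their methods name SICER2 for H3K27me3, whose deposited lists have the broadPeak layout of MACS2. Aligner, duplicate handling and use of controls are not given in the sources used here. For each peak the deposited lists give a fold enrichment (ratio of pileup to local background), a −log10 p-value and a −log10 q-value, none scaled between libraries. DiffBind 3.9 and ChIPseeker 1.8.6, named in the notes of the submitters, left no values in the lists. Positions are on hg38, and 0 of 298286 peaks on nuclear chromosomes ran past a chromosome end.

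Canonical start sites came from GENCODE 44. Peaks of the 6 vehicle and OA H3K4me3 libraries that overlapped by 1 bp were merged, and regions found in at least 2 libraries were kept (18734). Of these, 11039 lay within 500 bp of a protein-coding start site and the 9239 called in all 6 libraries were tested with limma 3.58.1 (R 4.3.3, trend, moderated, no covariates) on log2 covered length, centred on each library's median, and on percentile rank, with Benjamini-Hochberg adjustment over all 9239 and a threshold of 0.05. Tables were made with Python 3.11.15, pandas 2.3.3 and scipy 1.17.1. The scripts were tested on simulated data. Pileup at the summit was solved from fold enrichment and p-value, a step added after the data were seen, and 100% of peaks with −log10 p up to 250 were solved within 0.01. Peak lists do not give total reads, so precision is limited by an unknown depth.

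The members, role groups and lists were chosen with earlier results of these data known. Genes were named if they were not called in all 6 libraries, belonged to an isoform pair, or were the longest or shortest of a role. They were also named for 1 of the 5 largest changes in either direction of length or rank. A region shared with another member was a further reason. Of the members with an opposite-strand start site within 1 kb, only some were named. The highest and lowest ranks, the motif matches and the start-site gaps were named after their values were seen. Same-numbered vehicle and OA libraries were not taken as pairs. Alternatives were a call over the start site or within 3 kb, a q-value of at most 1e-05, equal numbers of peaks, regions called in at least 4 libraries, no centring, percentiles among tested regions, a replicate block, and each library left out.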

Additional observations from a re-analysis of the deposited data

How the results depend on the processing

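The 90 members called in all 6 H3K4me3 libraries stayed called when peaks above a q-value of 1e-05 were dropped. They also stayed called with equal numbers of peaks (16086 per library), and 66 had the start site itself under a peak in all 6. Widening the window to 3 kb or leaving out a library could not remove any of the 90. These alternatives could only raise the count, which stayed at 90. The count of members with an H3K27me3 call was 0, and peaks within 3 kb gave 7. The other alternatives only narrow the window or drop peaks or libraries, so they could not raise a count of 0. For length, the number of regions passing limma's test was 0 under every alternative except leaving out libraries 1 at a time, where it ran from 0 to 12 (without vehicle 3). For rank, the 18 calls became 0 with a q-value of at most 1e-05, 40 with equal numbers of peaks, 0 with percentiles among the tested regions, and 0 to 227 with libraries left out. The cause was not tested. With the replicate number as a block there was 1 call for rank and 0 for length. Same-numbered libraries deviated together with correlations of 0.0595, 0.106 and -0.211 for length and 0.194, 0.0999 and -0.0905 for rank, so the numbers were not taken as pairs. No member was called in any of these fits. The median member difference in length was 0.0623 without centring, against -0.0864 with it, and between -0.113 and -0.0665 under the other alternatives. The spread between replicates on the centred scale was 0.0306, and no test of the member median against 0 was made. Over all tested regions the median was -0.0228 with centring and 0.126 without it. A difference between members and other regions was not tested. The median member difference in rank ran from -2.97 to 0.610 points, within the spread between replicates of 3.82 points.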
